A study of Mus musculus with 9 samples.

Results

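The levels of 8 genes that mark oligodendrocyte precursors and newly forming oligodendrocytes were followed in whole mouse brain. They were taken by name from a list written for this work and made up 8 of the 49315 genes in the count table. Pdgfra, Cspg4 and Lhfpl3 mark the precursor stage, and Gpr17, Neu4, Enpp6, Bcas1 and Tns3 mark the later stages. RNA-seq was performed on polyA-selected RNA from individual brains of WT C57BL/6J male mice. The young mice (n = 5) were 3 months old by the sample labels, and the old mice (n = 4) were 33 months old. The mice received no treatment, and all were fed without restriction. An old mouse with the replicate number 2 was not analysed here. The comparison asked how transcript levels differed between old and young brain.

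Oligodendrocytes make the myelin sheaths that wrap axons in the brain. They arise throughout life from dividing precursor cells, which carry the receptor Pdgfra and the proteoglycan NG2, the product of Cspg4. A precursor that leaves the cell cycle passes through a committed stage marked by Gpr17 and Neu4. A newly formed stage marked by Enpp6, Tns3 and Bcas1 follows, as the genes of mature myelin are switched on. Bcas1 and Tns3 are not confined to that stage, as Bcas1 remains in myelin and Tns3 is also expressed outside the lineage. The committed and newly formed stages are short-lived, and their markers are used to find places where oligodendrocytes are being added.

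The gene starts of 3 of these genes are shown here, 1 that did not pass the test between the ages (Pdgfra), 1 lower in old brain (Neu4) and 1 higher in old brain (Tns3). The sequences are from RefSeq (GRCm38.p6), which gave an entry for 6 of the 8 genes, and run from 250 bases before to 50 bases after the annotated start on the strand of the gene. They lie at chr5:75152001-75152300 on the plus strand for Pdgfra, at chr1:94020243-94020542 on the plus strand for Neu4 and at chr11:8664486-8664785 on the minus strand for Tns3. Capitals mark exact matches to the SOX motif ACAANG in Pdgfra and Tns3, where it is read from the opposite strand as CNTTGT, and to the TCF/LEF motif CTTTGA in Neu4.
Pdgfra: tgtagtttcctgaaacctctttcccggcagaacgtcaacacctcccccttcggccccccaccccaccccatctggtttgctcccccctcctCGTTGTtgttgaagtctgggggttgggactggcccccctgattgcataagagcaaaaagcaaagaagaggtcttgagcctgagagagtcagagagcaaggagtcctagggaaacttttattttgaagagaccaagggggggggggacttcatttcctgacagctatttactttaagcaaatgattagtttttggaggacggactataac
Neu4: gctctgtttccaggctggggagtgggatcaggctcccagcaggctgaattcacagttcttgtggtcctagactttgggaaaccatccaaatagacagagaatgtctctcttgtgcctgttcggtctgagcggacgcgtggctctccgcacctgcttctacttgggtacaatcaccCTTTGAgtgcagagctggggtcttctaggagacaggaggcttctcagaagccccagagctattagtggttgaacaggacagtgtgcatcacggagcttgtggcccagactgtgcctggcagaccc
Tns3: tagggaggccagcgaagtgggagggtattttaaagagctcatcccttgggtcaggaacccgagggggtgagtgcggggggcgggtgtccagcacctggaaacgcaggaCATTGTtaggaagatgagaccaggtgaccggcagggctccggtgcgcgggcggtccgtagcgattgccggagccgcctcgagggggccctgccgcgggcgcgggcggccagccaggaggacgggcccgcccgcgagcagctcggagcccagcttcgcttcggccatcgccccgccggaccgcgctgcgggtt

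The match in Pdgfra began 159 bases before the start, that in Tns3 142 bases before it and that in Neu4 75 bases before it. Of the 6 promoters, 3 held the SOX motif (Pdgfra, Enpp6 and Tns3), 2 held the TCF/LEF motif (Lhfpl3 and Neu4) and 1 held the E-box CAGCTG (Lhfpl3). Over all 32851 promoters of this length, 41.2% held the SOX motif, 16.0% the TCF/LEF motif and 16.3% the E-box, searched on both strands. No match overlapped another in these promoters, and the promoter of Cspg4 held none of these letters. Base composition varied widely among the genes. The Tns3 promoter had a GC content of 70.7% with 33 CpG dinucleotides and the Enpp6 promoter 40.3% with 4, against medians of 52.7% and 7 over all promoters. The GC content was 51.0% for Pdgfra, 55.3% for Neu4, 60.0% for Cspg4 and 66.0% for Lhfpl3. A match to such short letters is a description of the sequence and was not tested as a binding site.

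The total count per library ranged from 14229259 to 21150439, and all 8 genes passed the filter on low counts. Markers of neurons, astrocytes, microglia, endothelial cells and oligodendrocytes were present in every library, as whole brain should have. Their summed levels overlapped between the ages for neurons (5335 to 5766 CPM, the count scaled to library size, in young, 5292 to 5841 in old) and astrocytes (3538 to 3857 in young, 3646 to 3744 in old). The summed levels of 7 endothelial genes (235.0 to 250.8 CPM in young, 266.3 to 307.6 in old) and of 5 blood genes (86.1 to 115.9 CPM in young, 127.9 to 408.9 in old) were higher in every old library. The endothelial genes did not all rise. Of the 7, 4 passed the test as higher, whereas Cldn5 (means of 30.7 CPM in young, 27.8 in old) and Kdr (18.4 and 14.9) were lower in old brain and did not pass. The summed levels of 8 microglial genes ran from 213.4 to 293.7 CPM in young and from 283.6 to 340.1 CPM in old libraries. Genes chosen to show uneven dissection varied widely between libraries, such as Cdhr1 (65 to 1229 reads per library) and Gabra6 (577 to 1767). Cdhr1 had means of 10.2 CPM in young and 29.6 CPM in old brain, and Gabra6 79.8 and 63.2 CPM. Of 10 such genes tested, 0 passed. The part of all these genes in the results was not tested. In whole tissue, fewer cells of a type and less RNA per cell cannot be told apart.

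Gpr17 fell to a much lower level in old brain and Tns3 rose. Neu4 fell at the threshold of the test, and its call was lost in 12 of 18 other fits. The precursor genes Pdgfra, Cspg4 and Lhfpl3 and the later genes Enpp6 and Bcas1 did not pass the test. By the quasi-likelihood test of edgeR, adjusted over 18492 genes by the Benjamini-Hochberg method, 3 of the 8 genes passed at 0.05, 1 higher and 2 lower in old brain. Over all genes tested, 11.0% passed in either direction, 6.09% as higher and 4.89% as lower. Only Gpr17 among the 8 also passed an absolute log2 fold change of 0.58, which 0.373% of all genes did as lower and 2.13% as higher. Old and young libraries did not overlap for Gpr17 and Tns3 and overlapped for the other 6 genes, and 12.6% of all genes showed no overlap (6.50% higher, 6.08% lower). The median log2 fold change (old minus young) of the 8 genes was -0.06, beside -9.21e-05 over all genes. The 8 genes are too few and too unlike each other for that median to stand for them. Their mean log2 CPM overlapped between the ages (5.121 to 5.248 in young, 4.965 to 5.144 in old libraries).

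**Figure D1:**
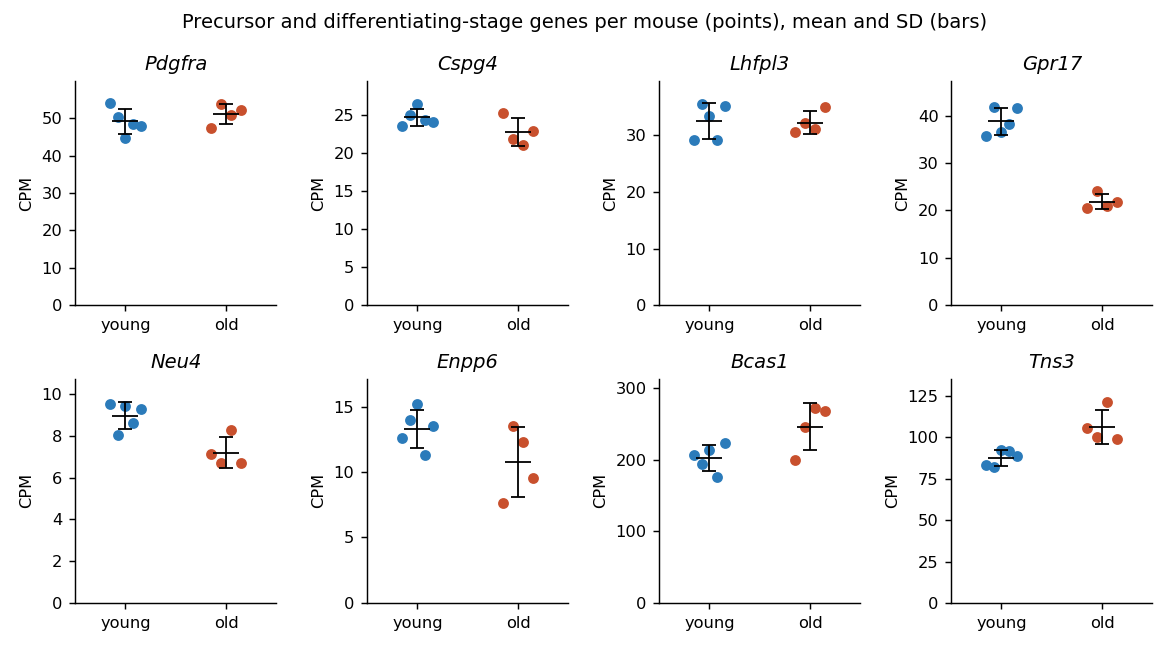
Level of each of the 8 genes in every library, in CPM (vertical axes from 0), for the 5 young (blue) and 4 old (red) mice; bars show the mean and SD. Gpr17 lies between 35.6 and 41.9 CPM in young and between 20.5 and 24.2 CPM in old libraries, with no overlap, while Pdgfra, Cspg4 and Lhfpl3 overlap.

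Pdgfra encodes the alpha receptor for platelet-derived growth factor, a tyrosine kinase that drives division and survival of precursors. Its levels were 54.0, 50.3, 44.7, 48.5 and 48.0 CPM in young and 47.3, 53.7, 50.8 and 52.2 CPM in old libraries. Both ages covered nearly the same range. The means were 49.1 ± 3.40 CPM (SD, n = 5) and 51.0 ± 2.72 CPM (SD, n = 4), with a log2 fold change of 0.05 (SE 0.055, adjusted p = 0.605). On the TPM scale, which is per length, the value was -0.10, beside a median of all genes that was itself shifted to -0.14, so Pdgfra stayed slightly above that median on both scales. Pdgfra is also expressed by fibroblasts of the brain's coverings. The summed level of 7 fibroblast genes was 193.0 to 226.0 CPM in young and 215.9 to 284.3 CPM in old libraries, and of these 7 genes only Col3a1 passed the test, as lower. Their part in the value of Pdgfra was not tested. In GRCm38 the gene lies on chromosome 5 from 75152292 to 75198215. Its exons overlap those of Mir7025 on the same strand and of Gm42802 and Gm42803 on the opposite strand.

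Cspg4 encodes the core protein of the NG2 proteoglycan on the precursor surface. Its levels were 23.6, 25.1, 26.5, 24.4 and 24.2 CPM in young and 25.3, 21.9, 21.1 and 22.9 CPM in old libraries. Old replicate 1 lay within the young range, and the other 3 old libraries lay below it. The means were 24.7 ± 1.12 CPM and 22.8 ± 1.84 CPM (SD), with a log2 fold change of -0.11 (SE 0.063, adjusted p = 0.275). Pericytes also carry NG2. The summed level of 10 pericyte and smooth muscle genes was 236.7 to 263.2 CPM in young and 245.7 to 295.6 CPM in old libraries, and 2 of these genes, the potassium channel genes Kcnj8 and Abcc9, passed the test as higher, Kcnj8 only while old replicates 3 and 4 were both kept (adjusted p = 0.0664 and 0.0638 without them). Their part in the value of Cspg4 was not tested. The gene lies on chromosome 9 from 56865033 to 56899870.

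Lhfpl3 encodes a membrane protein with several spans that is enriched in precursors. Its levels were 29.2, 35.6, 33.3, 29.1 and 35.2 CPM in young and 30.5, 32.1, 31.1 and 35.0 CPM in old libraries. All 4 old libraries lay within the young range. The means were 32.5 ± 3.16 CPM and 32.2 ± 2.01 CPM (SD), with a log2 fold change of -0.01 (SE 0.069, adjusted p = 0.951). Its sign changed when any of 4 mice was left out. The gene lies on chromosome 5 from 22746059 to 23275597, and its exons overlap those of A930003O13Rik on the opposite strand.

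Gpr17 encodes a G protein-coupled receptor that is switched on as precursors commit to differentiate and is switched off before myelin forms. Its levels were 35.6, 41.9, 36.5, 38.4 and 41.6 CPM in young and 20.5, 24.2, 21.0 and 21.7 CPM in old libraries. The highest old library lay well below the lowest young one. The means were 38.8 ± 2.87 CPM (SD, n = 5) and 21.9 ± 1.63 CPM (SD, n = 4), so the level fell by 43.8% in old brain. The log2 fold change was -0.83 (SE 0.065, edgeR adjusted p = 1.265e-06). Of the 905 genes called lower in old brain, Gpr17 had the lowest p and ranked 26 by fold change. An exact two-sided permutation test over the 126 splits of the mice gave p = 0.00794, the smallest that 5 and 4 mice can give. In all 18 other fits the adjusted p stayed under 0.05, and the log2 fold change lay between -0.99 and -0.80.

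The counts behind these values were 531 to 794 reads per young library and 343 to 386 per old library. Gpr17 lies on the minus strand of chromosome 18 from 31942997 to 31949636 in GRCm38. Its exons overlap those of Lims2 on the plus strand, and the sources used here do not state whether these libraries were strand-specific. The paper's methods describe counts of unique gene hits and do not say how reads of the shared stretch were treated. Lims2, a gene for a focal adhesion protein, had mean levels of 9.995 CPM in young and 10.2 CPM in old brain, with a log2 fold change of 0.04 (SE 0.099, adjusted p = 0.833).

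Neu4 encodes a sialidase, an enzyme that removes sialic acid from glycans, and is enriched in committed precursors. Its levels were 9.51, 8.02, 9.42, 8.60 and 9.27 CPM in young and 7.12, 6.70, 8.26 and 6.69 CPM in old libraries. Old replicate 4 lay above young replicate 2, and the other 3 old libraries lay below every young one. The means were 8.96 ± 0.636 CPM and 7.19 ± 0.740 CPM (SD), with a log2 fold change of -0.31 (SE 0.098, adjusted p = 0.0499). This value sat at the threshold. The adjusted p was 0.0503 without robust estimation of the dispersions and was over 0.05 in 12 of the 18 other fits, where the direction stayed negative. These included the fits without old replicate 5 (adjusted p = 0.1305), without old replicates 1 or 3 and without young replicates 1, 3, 4 or 5. The exact two-sided permutation p for Neu4 was 0.0238. The gene was counted by 95 to 182 reads per library, the fewest of the 8 genes, and lies on chromosome 1 from 94020451 to 94028334.

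Enpp6 encodes a choline-specific phosphodiesterase of newly forming oligodendrocytes. Its levels were 12.6, 13.9, 15.2, 11.3 and 13.5 CPM in young and 7.65, 13.5, 12.3 and 9.57 CPM in old libraries. Old replicates 1 and 5 lay below every young library, and old replicates 3 and 4 lay among them. The means were 13.3 ± 1.46 CPM and 10.8 ± 2.66 CPM (SD), with a log2 fold change of -0.31 (SE 0.146, adjusted p = 0.205). The log2 fold change of Enpp6 was as large as that of Neu4, but its standard error was larger. Enpp6 passed the test in 1 of 18 other fits, the 1 that kept every gene with a count (adjusted p = 0.0088). Leaving out old replicate 1 reduced the log2 fold change to -0.17 (adjusted p = 0.410). The gene lies on chromosome 8 from 46986887 to 47096762.

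Bcas1 marks oligodendrocytes that have begun to make myelin and remains in myelin after that. It was the most abundant of the 8 genes, with 206.2, 193.9, 213.3, 175.9 and 223.4 CPM in young and 199.5, 245.0, 271.7 and 268.1 CPM in old libraries. Old replicate 1 lay among the young libraries, and the other 3 old libraries lay above every young one. The means were 202.5 ± 18.4 CPM and 246.1 ± 33.2 CPM (SD), with a log2 fold change of 0.28 (SE 0.103, adjusted p = 0.1235). The call depended on the setting. Without old replicate 1 the log2 fold change was 0.37 (adjusted p = 0.00686), DESeq2 gave an adjusted p of 0.0145 and edgeR without robust estimation 0.0449, whereas the other 15 fits did not pass. Bcas1 lies on chromosome 2 from 170346991 to 170427845 and overlaps the antisense genes Bcas1os1 and Bcas1os2.

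Tns3 encodes tensin 3, which links integrins to the actin skeleton and is enriched in newly formed oligodendrocytes. Its levels were 83.6, 82.0, 92.2, 91.7 and 88.5 CPM in young and 105.6, 99.9, 121.1 and 98.9 CPM in old libraries. Every old library lay above every young one. The means were 87.6 ± 4.65 CPM and 106.4 ± 10.2 CPM (SD), with a log2 fold change of 0.28 (SE 0.058, adjusted p = 0.0055). The exact two-sided permutation p for Tns3 was 0.00794. Bcas1 had a log2 fold change of the same size with a larger standard error. The rise of Tns3 passed in 16 of 18 other fits and was lost on both TPM scales, where the log2 fold change was 0.11 (adjusted p = 0.740 and 0.737 with limma) and the median of all genes was shifted to -0.14 and -0.16. Tns3 is also expressed outside the lineage. The gene lies on chromosome 11 from 8431652 to 8664535.

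**Figure D2:**
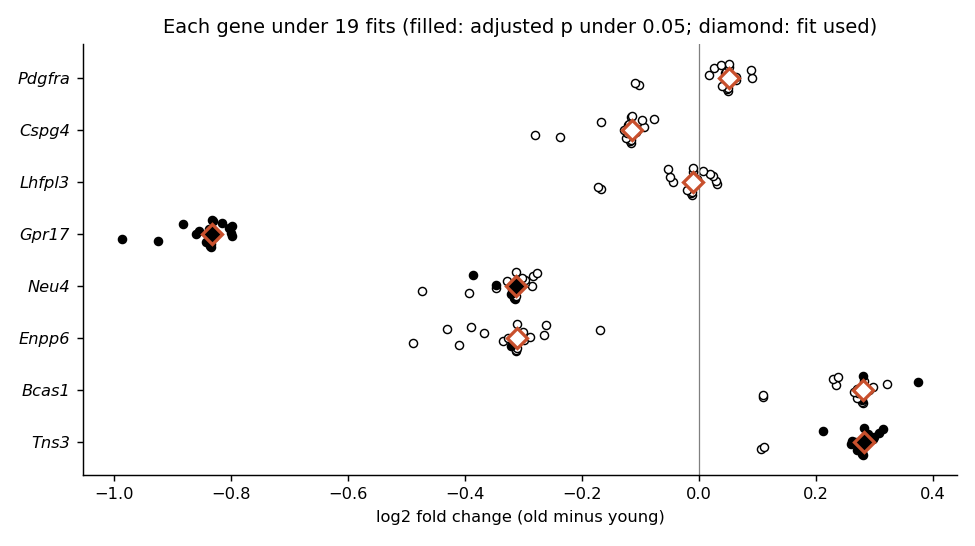
Log2 fold change (old minus young, horizontal axis) of each of the 8 genes under the fit used (diamond) and 18 other fits (circles, spread vertically for visibility), filled where the adjusted p was under 0.05. Gpr17 is filled in every fit and Tns3 in all but the TPM fits, while Neu4 is mostly open.

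The level of each gene was also set against that of Pdgfra in the same library. Only Gpr17 separated the ages on this ratio. Its log2 CPM minus that of Pdgfra was between -0.60 and -0.21 in young and between -1.27 and -1.15 in old libraries, a mean difference (old minus young) of -0.88. The young libraries spread more widely than the old ones, with young replicate 1 the lowest of the young. The ages overlapped for the other 6 genes, with mean differences of -0.39 for Enpp6, -0.37 for Neu4, -0.18 for Cspg4, -0.06 for Lhfpl3, 0.22 for Bcas1 and 0.22 for Tns3. These ratios were not tested.

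**Figure D3:**
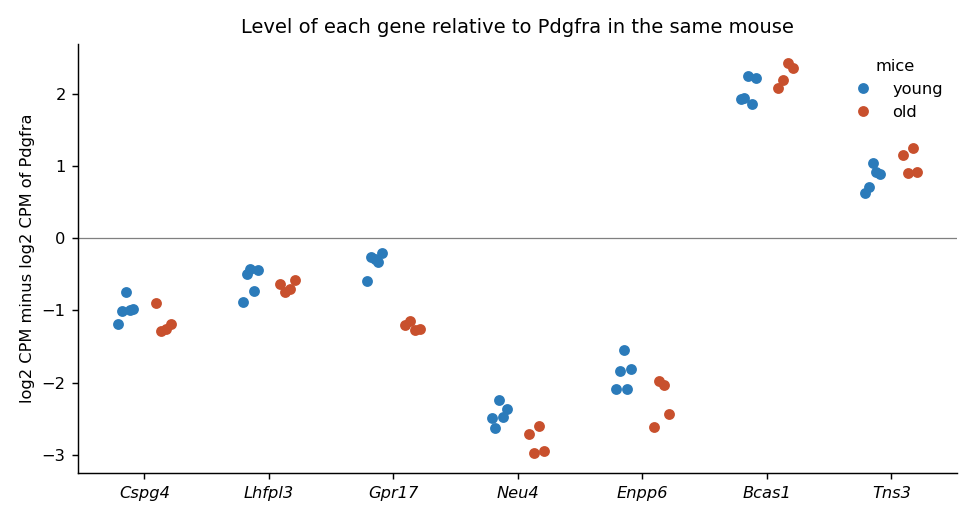
Log2 CPM of each gene minus that of Pdgfra in the same library (vertical axis), for 5 young (blue) and 4 old (red) mice. Gpr17 lies between -0.60 and -0.21 in young and between -1.27 and -1.15 in old libraries, and the other 6 genes overlap.

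Levels of different genes were compared per length, as TPM. In young brain the medians were 132.7 TPM for Bcas1, 24.7 for Lhfpl3, 18.8 for Tns3, 18.7 for Gpr17, 12.9 for Pdgfra, 5.38 for Cspg4, 5.34 for Enpp6 and 4.48 for Neu4. In old brain they were 147.9 TPM for Bcas1, 22.9 for Lhfpl3, 22.7 for Tns3, 11.7 for Pdgfra, 9.77 for Gpr17, 4.33 for Cspg4, 3.98 for Enpp6 and 3.70 for Neu4. Gpr17 and Pdgfra changed places. Gpr17 was above Pdgfra in all 5 young libraries (16.1 to 23.9 TPM against 10.6 to 15.2) and below it in all 4 old ones (9.11 to 10.16 TPM against 10.97 to 12.67). The ranges of Lhfpl3 and Tns3 overlapped in both ages, although Lhfpl3 was the higher of the pair within 5 of 5 young and 3 of 4 old libraries. Tns3 and Gpr17 overlapped in young brain, with Tns3 the higher in 3 of 5 libraries. The ranges of the neighbours Cspg4, Enpp6 and Neu4 overlapped in both ages. Young replicate 3 had the highest TPM of all libraries for each of the 8 genes, which was not so on the CPM scale. The gene lengths behind the TPM values are not given in the sources used here.

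Across mice the 8 genes did not move as 1 group. After the mean of each age was subtracted from log2 CPM, 15 of the 28 pairs had a Pearson correlation above 0 over the 9 libraries, with a median of 0.13. The lowest was -0.71 between Pdgfra and Cspg4, and the highest 0.76 between Neu4 and Tns3. Both values of a point come from the same library, and the 9 libraries differ in depth, so these are descriptions of the libraries.

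Among 14500 genes with a mean log2 CPM of at least 1, those whose log2 CPM over the 9 libraries was most like that of Gpr17 included Armcx4 (Pearson r = 0.99), Gap43 (0.97), Smim13 (0.97) and Ogdh (0.97). These 4 genes passed the test as lower in old brain, with log2 fold changes from -0.28 for Gap43, a growth-associated protein of axons, to -0.16 for Ogdh, an enzyme of the citric acid cycle. Gpr17 itself separated the ages, so a choice of genes like it favours genes that are lower in old brain. With age means subtracted, r was 0.80 for Armcx4, 0.67 for Smim13, 0.43 for Ogdh and 0.37 for Gap43. After age means were subtracted the 5 most similar genes were Hmgxb3 (0.98), Ephx2 (0.96), Mdga2 (0.95), Scfd1 (0.94) and Rce1 (0.93), and none of them passed the test. For Pdgfra they were Gm15246 (0.91), Znrf3 (0.89), Khk (0.88), Gm44280 (0.88) and Mib1 (0.88) over the libraries, and Rnf43 (0.94), Gm44280 (0.94), Pfn4 (0.93), Mbtps2 (0.93) and Ccdc148 (0.92) after age means were subtracted. Of these, Rnf43 passed the test as higher in old brain (log2 fold change 0.41, adjusted p = 0.0444) and the others did not pass.

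Of 18 other precursor genes, 1 passed the test as higher and 3 as lower in old brain (median log2 fold change -0.10). Not all of the 18 genes are confined to precursors. The part of other stages and cell types in their values was not tested. Cacng4, an auxiliary subunit of AMPA receptors, fell from 55.3 ± 1.83 to 45.5 ± 1.39 CPM (SD; log2 fold change -0.28, SE 0.043, adjusted p = 0.00056). Olig1, a transcription factor of the lineage, fell from 136.2 ± 4.77 to 121.4 ± 4.86 CPM (log2 fold change -0.17, SE 0.039, adjusted p = 0.0115). C1ql1, which encodes a secreted C1q-like protein, fell from 14.2 ± 2.38 to 10.5 ± 1.04 CPM (log2 fold change -0.43, SE 0.118, adjusted p = 0.0259), and its call was lost without young replicate 2, 3 or 5 or old replicate 1 or 5 (adjusted p up to 0.0837). Sox10, a transcription factor carried through the whole lineage, rose from 53.3 ± 5.03 to 64.0 ± 3.37 CPM (log2 fold change 0.27, SE 0.064, adjusted p = 0.0136). The ages did not overlap for Cacng4, Olig1 and Sox10. The means of Olig2, a related factor that specifies the lineage, were 32.0 ± 2.93 CPM for young and 32.2 ± 1.94 CPM for old brain (adjusted p = 0.960). The summed level of the 18 genes, to which abundant genes add most, overlapped between the ages. It ran from 1234 to 1329 CPM for young and from 1178 to 1270 CPM for old libraries. Their mean log2 CPM, which weighs each gene alike, did not overlap. It ran from 5.079 to 5.143 in young and from 4.934 to 5.048 in old libraries, and this difference was not tested.

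Of 15 other genes of differentiating oligodendrocytes that were tested, 1 passed as higher and 1 as lower (median log2 fold change -0.03). Their summed level was higher in every old library (385.2 to 407.9 CPM in young, 414.8 to 428.9 CPM in old). Their mean log2 CPM overlapped between the ages (3.632 to 3.764 in young, 3.624 to 3.68 in old). Neither difference was tested. Myrf, the transcription factor that starts the myelin programme, rose from 89.3 ± 5.39 to 113.5 ± 7.86 CPM (SD; log2 fold change 0.35, SE 0.051, adjusted p = 0.00044), with every old library above every young one. Kif19a, a kinesin gene, fell from 5.43 ± 0.545 to 3.70 ± 0.680 CPM (log2 fold change -0.55, SE 0.141, adjusted p = 0.0170), and its call was lost without old replicate 5 (adjusted p = 0.0585). Bmp4, a secreted ligand made by committed precursors, was low, with means of 2.32 ± 0.214 CPM for young and 2.80 ± 0.587 CPM for old mice, and did not pass (log2 fold change 0.27, SE 0.169, adjusted p = 0.338).

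Of 16 mature oligodendrocyte genes, 5 passed as higher and 2 as lower (median log2 fold change 0.15). Their summed level overlapped between the ages (6789 to 7949 CPM in young, 7428 to 9147 CPM in old). So did their mean log2 CPM (6.881 to 7.093 in young, 6.883 to 7.203 in old). The 4 genes of lowest p among those that rose were Trf (transferrin, log2 fold change 0.41), Aspa (aspartoacylase, 0.40), Anln (0.56) and Mbp (myelin basic protein, 0.26), and Mobp rose by a log2 fold change of 0.33. Ugt8a, which makes the myelin lipid galactosylceramide, fell (log2 fold change -0.33), as did Mog (-0.22), a protein of the outer myelin surface, whose call was lost without young replicate 1, 3 or 5 or old replicate 1 or 5 (adjusted p up to 0.0838). Mbp had means of 2972 ± 192.5 CPM in the young and 3560 ± 356.3 CPM in the old mice (adjusted p = 0.0194) and did not pass without old replicate 3 (adjusted p = 0.0604). Opalin, a membrane protein of oligodendrocytes, had the most negative log2 fold change of the list at -0.56 (SE 0.166; 20.9 CPM in young and 14.3 CPM in old brain) and did not pass (adjusted p = 0.0625). On both TPM scales Gpr17, C1ql1 and Kif19a were the only genes of the lineage named here whose calls held.

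**Figure D4:**
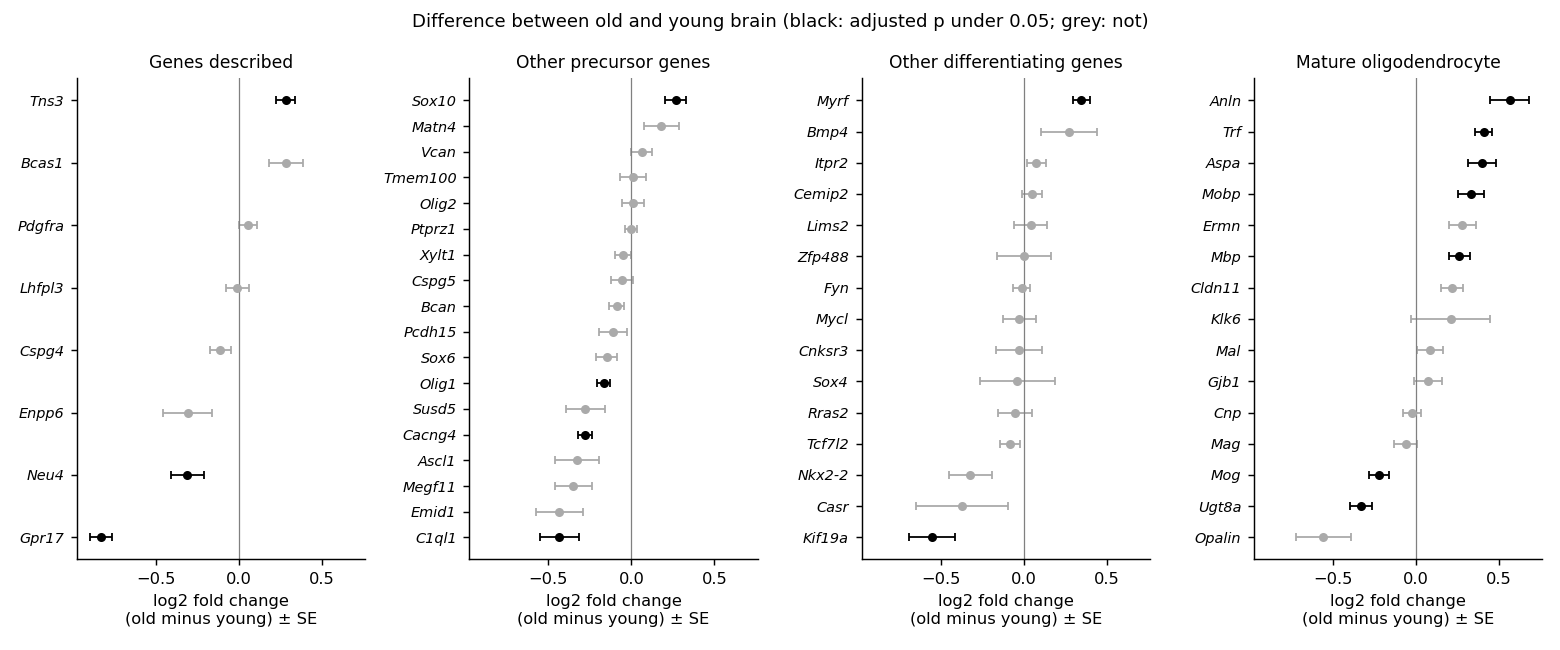
Log2 fold change (old minus young, horizontal axes) with its standard error for the 8 genes described, 18 other precursor genes, 15 other differentiating genes and 15 of the 16 mature oligodendrocyte genes (1 is not drawn); black marks an adjusted p under 0.05. All 4 panels hold genes on both sides of 0, and Gpr17 at -0.83 lies farthest from 0 of all genes drawn.

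The ligands and receptors of the platelet-derived growth factor family were followed beside Pdgfra. Of 6 genes, 1 passed as higher and 0 as lower. Pdgfb, a ligand made largely by endothelial cells, rose from 23.6 ± 0.968 to 27.9 ± 2.23 CPM (SD; log2 fold change 0.24, SE 0.062, adjusted p = 0.0171), with overlap between the ages, and did not pass without old replicate 5 (adjusted p = 0.0657). Pdgfa, the ligand of the precursor receptor, had means of 38.6 ± 1.43 CPM in the young and 40.6 ± 1.34 CPM in the old mice (log2 fold change 0.07, SE 0.047, adjusted p = 0.365). On the TPM scale its value was -0.09, beside the shifted median of all genes of -0.14. Of 19 tested genes for other signals that promote or restrain precursors, 1 passed as higher and 2 as lower. Igf1r, a receptor for insulin-like growth factor, rose (log2 fold change 0.19, adjusted p = 0.0198). Nrg1, a neuregulin ligand (-0.31, adjusted p = 0.0226), and Id2, an inhibitor of differentiation (-0.16, adjusted p = 0.0258), fell. Each of these 3 calls was lost when 1 of several mice was left out, with an adjusted p of up to 0.0637 for Igf1r (young replicate 3, old replicate 1 or 5), 0.0761 for Nrg1 (young replicate 2, 3 or 5, old replicate 1) and 0.0778 for Id2 (young replicate 1 or 5, old replicate 3 or 5).

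Of 12 tested cell cycle genes, 1 passed as higher and 1 as lower. Pcna, the sliding clamp of DNA replication, rose from 33.5 ± 1.08 to 39.7 ± 2.34 CPM (SD; adjusted p = 0.0047), and Ccnd2, a cyclin, fell from 66.7 ± 4.04 to 57.3 ± 3.48 CPM (adjusted p = 0.0117). Mki67, a marker of dividing cells, was between 2.32 and 2.72 CPM in young and between 1.59 and 8.59 CPM in old libraries (log2 fold change 0.57, adjusted p = 0.530). Its positive value rested on old replicate 4, and without that mouse it was -0.29. The mean log2 CPM of the cell cycle genes was also highest in old replicate 4 (2.935, against 2.37 to 2.534 in young). In old replicates 1, 3 and 5 it was 2.004, 2.14 and 2.202, below every young library. Old replicate 4 also had the highest mean of the blood genes (5.802). These differences were not tested. Whole brain holds dividing cells of several types, so these levels do not measure division of precursors. Of 10 immature neuron genes, Sox11 and Stmn1 passed as lower and 0 passed as higher, Stmn1 not without young replicate 1 or old replicate 1 or 4 (adjusted p up to 0.0664).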

How the data were processed

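RNA was measured in 9 individual whole brains, 5 young and 4 old. Per the paper's methods, a sequencing company processed the reads for the authors, with Trimmomatic for trimming, STAR for alignment to GRCm38 and featureCounts for uniquely mapped reads in exons. The submitters' processing notes name DESeq2 and mm10. The deposited counts are whole reads per gene. The deposited normalized counts are a signal made by the authors with 1 size factor per library and cover 17994 genes. The authors also deposited TPM values, made with gene lengths that are not given in the sources used here. Within each table, 1 column of per-sample values matched no sample used here and was not used. Counting used strand for strand-specific libraries, and whether these libraries were strand-specific is not given in the sources used here.

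Genes passing filterByExpr (minimum count 10, minimum total 15) were normalized with TMM and tested with the quasi-likelihood F-test of edgeR (robust estimation, Benjamini-Hochberg over 18492 genes). The software was edgeR 4.0.16, DESeq2 1.42.0 and limma 3.58.1 under R 4.3.3. The SE of a log2 fold change was its absolute value divided by the square root of the F statistic, so it was derived from the test. The thresholds were an adjusted p of 0.05 and, as a second rule, a log2 fold change of 0.58. Log2 CPM used a prior count of 2. Symbols and positions came from GENCODE M21, and 345 gene IDs had no symbol there.

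Library totals of 14229259 to 21150439 gave a biological coefficient of variation of 6.71% and a median SE of 0.085 on the log2 scale. Libraries of 1 age differed by more than the sampling noise. The labels number the mice and the methods call them biological replicates. The 8 genes and all lists were chosen with earlier results of these data known, so no list is independent evidence. Named genes were the 8, up to 4 genes per list and direction by lowest p, Pdgfa, Bmp4, Mki67, Olig2, Sox10 and Mbp, and the 5 most similar to Pdgfra or Gpr17. Some genes under this rule are left out of the text. Lims2, the genes that overlap Pdgfra, Lhfpl3 and Bcas1, Mobp, Opalin, Cldn5, Kdr, Cdhr1 and Gabra6 were named beside these after the data were seen. Alternatives were other size factors, DESeq2's Wald test, no filter, limma on log2(TPM + 1), log2(TPM + 0.1) and log2 of the normalized counts, a replicate block, each mouse left out and, added after the data were seen, edgeR without robust estimation.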

Additional observations from a re-analysis of the deposited data

Results flagged for a closer look

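A library of 1 age was tested for standing apart from the others of its age by Dixon's ratio (critical value 0.71 for 5 young and 0.829 for 4 old libraries). Of 122 combinations of gene or list mean and age, 7 passed, where chance gives about 6.1, and none of the 8 genes was among them. Within the lineage, Sox10 was low in young replicate 4 at 5.485 log2 CPM (others 5.767 to 5.856), Cacng4 was high in old replicate 5 at 5.575 (others 5.484 to 5.492) and Olig2 was low in old replicate 3 at 4.877 (others 5.049 to 5.067). Sox10 and Cacng4 kept their calls when any mouse was left out. Pdgfa, the ligand of Pdgfra, was low in old replicate 5 at 5.273 log2 CPM (others 5.361 to 5.378). Of genes of other cell types, Stmn1 was low in young replicate 3 at 8.102 log2 CPM (others 8.160 to 8.181) and Ly6c1 was high in young replicate 4 at 4.693 (others 4.372 to 4.462). The mean of the pericyte and smooth muscle genes was low in young replicate 4 at 3.437 log2 CPM (others 3.586 to 3.632).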

How the results depend on the processing

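Gpr17 kept its direction and call under every alternative run. Leaving out each mouse gave log2 fold changes of -0.88 to -0.80 for Gpr17, 0.21 to 0.32 for Tns3, -0.39 to -0.28 for Neu4 (adjusted p 0.0275 to 0.1305, kept only without young replicate 2 or old replicate 4), 0.23 to 0.37 for Bcas1, -0.053 to 0.030 for Lhfpl3, -0.032 to 0.047 for Olig2 and -0.29 to 0.84 for Mki67. It gave 1 to 2 higher and 1 to 2 lower of the 8 genes, 0 to 2 lower differentiating and 1 to 3 lower mature genes. DESeq2 gave -0.31 for Neu4 (0.0644) and 0.28 for Bcas1, with 2 of the 8 higher and 1 lower, as did edgeR without robust estimation (-0.31 and 0.28). With every gene with a count tested, Enpp6 was -0.32 (0.0088) and Olig2 -0.00265, 592 genes were higher and 115 lower past the fold threshold, beside 394 and 69, and 5 precursor genes were lower. On log2(TPM + 1) and log2(TPM + 0.1), Pdgfra was -0.10 and -0.11, Neu4 -0.39 and -0.47, Tns3 0.107 and 0.112, Pdgfa -0.0901 and -0.0922 and Olig2 -0.15 and -0.16. There 307 and 304 genes were higher and 287 and 296 lower, beside 1126 and 905, and past the fold threshold 217 were higher with the first and 163 and 264 lower. Of the 8 genes 0 were higher and 1 lower on both TPM scales, of precursor genes 0 and 1, of differentiating genes 0 higher and of mature genes 0 and 1. Same-numbered mice of the ages had deviations correlated at 0.17, -0.118, 0.0884 and -0.0243. The most similar old library was old replicate 1 for young replicate 1 and old replicate 4 for young replicates 3, 4 and 5. So few mice cannot settle whether the numbers pair them. With the replicate number as a block Lhfpl3 was 0.031, Neu4 -0.35 (0.0613) and Olig2 -0.00793. The calls of Mbp (0.0869), Kif19a (0.0552), Stmn1 (0.0676) and Kcnj8 (0.0557) were lost there. In that fit 1 of the 8 genes and 0 differentiating genes were lower, and 1060 genes were higher and 751 lower. The causes were not tested. The shift of the median of all genes on the TPM scales was -0.142 and -0.162. Neu4 had the lowest counts of the 8 genes (95 to 182 per library).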
